A study of Mus musculus with 4 samples.

Results

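The response of wild-type mouse neutrophils to lipopolysaccharide (LPS) is described here as the difference between 2 expression arrays, of 4 in the series. Neutrophils are the granulocytes that reach infected tissue first. LPS is the outer-membrane glycolipid of Gram-negative bacteria. The cells came from bone marrow of C57BL/6 mice, aged 8 weeks and carrying both copies of the microRNA gene (genotype miR-125a+/+), were enriched with a magnetic bead kit and were kept in serum-containing medium. The first array holds RNA of cells without LPS and the second RNA of cells given LPS for 3 h. For each array RNA of 3 experiments was pooled before hybridisation, so the spread between experiments cannot be recovered. The other 2 arrays hold the same pair of treatments in mice of the same strain and age that lack miR-125a. Titles give the unstimulated cells as 0 h, while another label gives them only as cells without LPS, so LPS and time in culture cannot be told apart. The sources used here give neither the LPS dose nor the sex of the mice.

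Toll-like receptor 4 binds LPS together with Ly96 (MD-2) and the co-receptor Cd14. Its adaptor Myd88 leads to the transcription factor NF-kB and to MAP kinases, which switch on cytokine genes and, with them, inhibitors of the same pathway. A further adaptor, TRIF, leads to interferon regulatory factors, type I interferon and the interferon-stimulated genes. Neutrophils leave the marrow with granule proteins already made, and what they transcribe on activation is mostly signalling proteins, cytokines and survival factors.

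Values are log2 array signals, and a difference is LPS minus unstimulated on that scale. Signals under log2 6.80 were set to that floor, so where one of the arrays was floored the true difference can be larger, and it is written as a bound or as "at least". A gene was called higher or lower from a 2-fold difference (log2 1). With 1 array per group no difference has a replicate check and no test was run. Of 18193 named genes, 9507 exceeded the floor on at least 1 wild-type array and 8404 on both. Among the measured genes 693 were called higher (7.29%) and 921 lower (9.69%), and 200 (2.1%) and 111 (1.17%) passed 4-fold. These 4 percentages are the background against which the counts in gene lists are to be read. The median difference of all measured genes was -0.03, the interquartile range was -0.48 to 0.37, and 57.1% lay within 0.5 of 0.

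**Figure D1:**
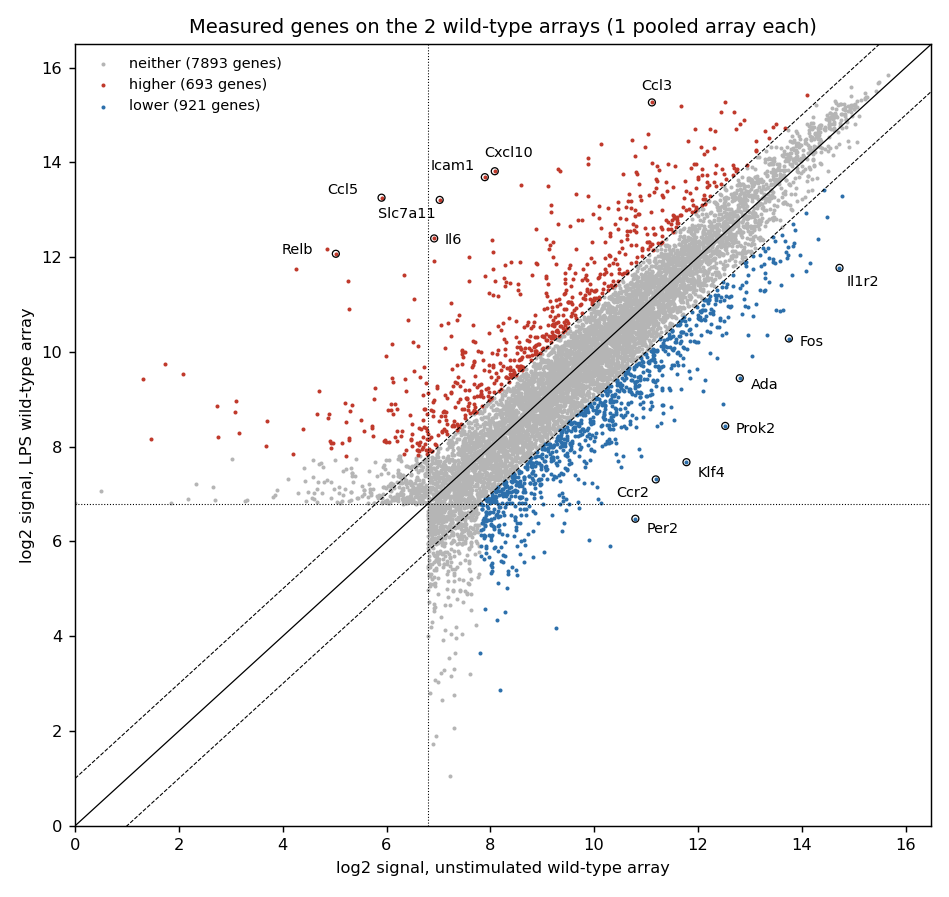
Log2 signal of each measured gene on the unstimulated (x axis) and LPS (y axis) wild-type arrays, with 2-fold limits dashed and the floor of 6.80 dotted. The 693 higher genes are red and the 921 lower genes blue. Where both signals exceeded the floor they reach up to 6.18 above the diagonal at Slc7a11 and down to -4.11 at Klf4, and grey genes outside the dashed lines differ by less than 2-fold once the floor is applied.

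The split between higher and lower genes depends on the scale, which the deposited values fix by setting the trimmed mean of every array to the same number. It was 835 higher and 707 lower after quantile normalization, 1030 and 620 after scaling to a common median, and 340 and 2389 after scaling on the poly-A spike-in controls. Those spike-ins, RNAs added before labelling, were 0.56 higher on the LPS array on average (24 probe sets), and hybridisation controls were 0.32 higher (18 probe sets). The median of all genes moved by 0.23 under the common median and by -0.51 under spike-in scaling. On the spike-in scale a difference between signals above the floor is 0.56 smaller than given here, so single higher genes under about 1.5 lose their call there and list medians under about 0.5 turn below 0, apart from that of the adhesion list. The ratio of 3' to 5' probe sets, a sign of RNA quality, was 0.23 and 0.16 on the log2 scale for Actb and -0.12 and -0.06 for Gapdh, unstimulated and LPS.

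Neutrophil markers stood high on both arrays. S100a8, a calcium-binding protein that fills the neutrophil cytosol, had 15.67 unstimulated and 15.84 after LPS, and the G-CSF receptor Csf3r had 12.43 and 13.21. Of 13 mature neutrophil markers none lay under the floor, and their summed linear signal was 279021 and 276305. Of 17 monocyte and macrophage markers 6 lay under the floor on both arrays, among them the complement genes C1qa, C1qb and C1qc, and the summed signal of the list was 36235 unstimulated and 57221 after LPS. Others of this list were bright unstimulated, with 13.97 for F13a1, 12.01 for Ms4a6c, 11.80 for Csf1r, 11.78 for Klf4 and 11.19 for Ccr2. Neutrophil precursor markers, with 0 of 11 under the floor, summed to 213450 and 216452, so the signal was not that of mature cells alone. Plasma cell markers, with 0 of 8 under the floor, summed to 42798 and 42451, and Jchain among them had 14.35 and 13.98. Erythroid markers summed to 5742 and 2967, B cell markers to 1304 and 1181 with 7 of 11 under the floor, and 8 of 11 T and NK cell markers lay under the floor. None of these lists held a marker at 0 on both arrays. The T and NK sum of 3030 and 11537 follows Ccl5, which is a member of that list and of the chemokines below. In RNA from many cells, fewer cells of a type and less RNA per cell cannot be told apart.

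Promoter sequence is given first, for some higher genes whose windows hold an element through which LPS signalling is known to act. Genes were picked for holding a match, so the stretches do not show how common it is. NF-kB dimers bind the kB element, searched on both strands as GGG, any 3 bases and TTCC, in windows from 250 bases before to 50 after annotated gene starts (RefSeq, mouse build GRCm38.p6). The 6 genes with the largest higher differences and a kB match wholly before the start are shown, 5' to 3' on the strand of the gene, with the match in capitals.
Cxcl10 (chr5:92348959-92349018, minus strand): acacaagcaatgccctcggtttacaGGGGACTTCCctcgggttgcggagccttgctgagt
Il6 (chr5:30013045-30013104, plus strand): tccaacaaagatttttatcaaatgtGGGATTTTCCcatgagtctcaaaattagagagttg
Rras (chr7:45017784-45017843, plus strand): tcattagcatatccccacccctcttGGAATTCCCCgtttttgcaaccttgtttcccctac
Sdc4 (chr2:164443236-164443295, minus strand): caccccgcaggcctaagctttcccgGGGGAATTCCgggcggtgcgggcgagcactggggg
Tnip1 (chr11:54962962-54963023, minus strand): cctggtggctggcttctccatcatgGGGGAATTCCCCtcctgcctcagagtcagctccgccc
Nfkb2 (chr19:46304674-46304736, plus strand): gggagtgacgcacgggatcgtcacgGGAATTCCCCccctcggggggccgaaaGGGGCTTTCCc
Tnip1 and Nfkb2 hold 2 matches each, which overlap in Tnip1. Of 9507 measured genes 7815 had a window, and a gene can have several. The kB element stood in 6.18% of the 9960 windows of measured genes, in 9.48% of the windows of genes called higher, in 13.5% of those at least 4-fold higher and in 5.83% of those called lower. Across all 32851 windows of the table it stood in 5.56%.

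Interferon-stimulated genes are switched on through the ISRE, searched on both strands as GAAA, any 2 bases and GAAA. The 4 members of the interferon lists with the largest differences and a match before the start are shown, again with matches in capitals.
Irgm2 (chr11:58214888-58214947, plus strand): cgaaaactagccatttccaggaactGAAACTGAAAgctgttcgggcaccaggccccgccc
Ifit1 (chr19:34640760-34640838, plus strand): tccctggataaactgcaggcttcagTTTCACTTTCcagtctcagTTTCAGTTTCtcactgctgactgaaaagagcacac
Rsad2 (chr12:26456538-26456597, minus strand): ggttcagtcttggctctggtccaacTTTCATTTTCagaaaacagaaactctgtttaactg
Irgm1 (chr11:48871421-48871475, minus strand): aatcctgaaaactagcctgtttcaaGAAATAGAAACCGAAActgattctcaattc
Matches were found in 3.20% of all windows of measured genes, 5.47% of windows of higher genes and 3.35% of windows of lower genes. An ISRE stood in 7 of 9 windows of the GBP and IRG GTPases, in 12 of 26 of the ISG15, PARP and Schlafen list and in 12 of 43 of the antiviral effectors. The AP-1 element (TGANTCA) stood in 5.12% of windows of measured genes, 7.74% of those of higher genes, 12.6% of those at least 4-fold higher and 5.40% of those of lower genes. Across all 32851 windows, which include genes not measured here, AP-1 stood in 7.81%, close to the share of higher genes. Among measured genes the E-box CACGTG ran the other way, with 10.4%, 7.74%, 9.18% and 12.5% in the same order, and it stood in 7.15% of all 32851 windows. A match describes the letters of a window and does not show that a factor binds there.

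**Figure D2:**
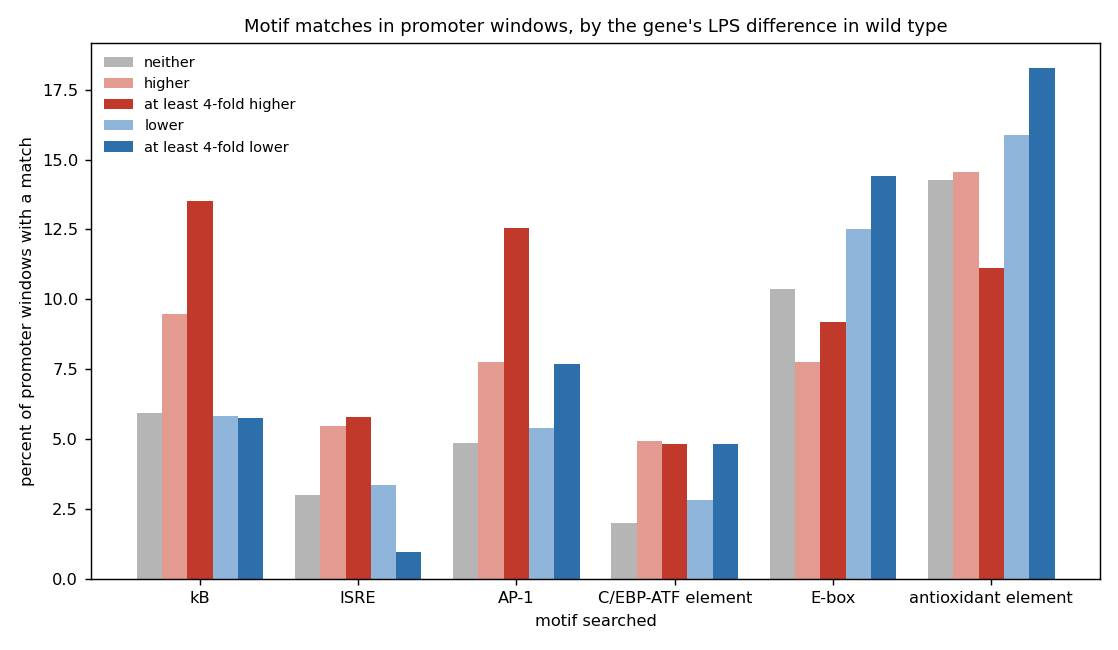
Percent of promoter windows (y axis) with a match to each of 6 motifs (x axis), for genes called neither, higher or lower and for the subsets past 4-fold. The kB element goes from 5.93% of windows of uncalled genes to 9.48% of higher and 13.5% of at least 4-fold higher genes, while the E-box is least frequent among higher genes, at 7.74%.

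Genes of secreted mediators held the largest share of higher members. Of 15 measured interleukin and interferon genes 10 were higher and 0 lower (median 2.07), of 7 CXC and other chemokines 5 were higher and 0 lower (median 2.38), and of 8 CC chemokines 4 were higher and 2 lower (median 0.99). Ccl5, an attractant of T cells and monocytes, lay at 5.90, under the floor, unstimulated and at 13.26 after LPS, at least 88.0-fold higher. Cxcl10, which attracts activated T cells, went from 8.09 to 13.81, a difference of 5.73. The pyrogenic cytokine Il6 went from 6.92, just above the floor, to 12.40. The sizes given for Ccl5 and Il6 depend on where the floor lies, because the unstimulated signal was under it or close to it.

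Other mediators were already bright in unstimulated cells. Ccl3 had 11.11 and 15.27, Cxcl2, a neutrophil attractant, 12.88 and 14.90, and Il1b 12.45 and 15.07. The receptor antagonist Il1rn, which blocks the action of Il1b, went from 10.09 to 13.09. Il1f9 (IL-36 gamma) had 10.62 and 13.06, a difference of 2.44, and Il1a was at least 31.0-fold higher. Subunits of the interleukin-12 family differed in parallel, with Ebi3 at 12.11 and 14.18, Il12a at 7.35 and 10.67, and Il23a at least 3.29-fold higher, while Il12b, at 7.37 after LPS, was a bound of 0.57. The anti-inflammatory cytokine Il10 was at least 10.0-fold higher.

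Among TNF superfamily ligands 3 of 6 were higher and 1 lower (median 1.15). Tnf had 10.82 and 13.76, its neighbour Ltb, a lymphotoxin chain, 11.95 and 14.71, and Lta was at least 3.84-fold higher. Tnfsf14 (LIGHT) went the other way, from 9.52 to just under the floor, a bound of -2.72, though its other measured probe set differed by only -0.11. The colony-stimulating factors split. Csf3, the granulocyte factor, was at least 6.71-fold higher and Csf2 at least 4.19-fold higher, whereas Csf1, the macrophage factor, went from 9.94 to 7.93. Other probe sets of Csf1 ranged from -1.02 to 0.21. Inhba, an activin subunit, went from 12.62 to 10.94 and Osm, a cytokine of the IL-6 family, from 11.56 to 10.21. Of the 12 measured growth and colony-stimulating factors 3 were higher and 4 lower.

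Lower members of the chemokine lists were Ccl2, the main attractant of monocytes, at 9.69 and 6.84, and Ccl6 at 11.96 and 10.21. The receptor of Ccl2 was lower too, as described below. Among soluble defence proteins 4 of 16 were higher and 1 lower. Ptx3, a pattern-recognition pentraxin, was at least 26.0-fold higher, and Saa3, an acute-phase apolipoprotein, had 12.70 and 15.06. The matrix proteases Mmp13 and Mmp14 lay under the floor unstimulated and were at least 17.2-fold and 10.7-fold higher, F10, coagulation factor X, had 10.71 and 13.20, and Serpinb2, an inhibitor of plasminogen activators, 7.71 and 10.22. Mmp9, the gelatinase stored in tertiary granules, had 14.84 and 15.10. Lower members of this group were F13a1, a clotting transglutaminase and monocyte marker, with -1.93, Thbs1, the matrix protein thrombospondin, with -1.39, and Thbd, thrombomodulin, with -1.33.

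**Figure D3:**
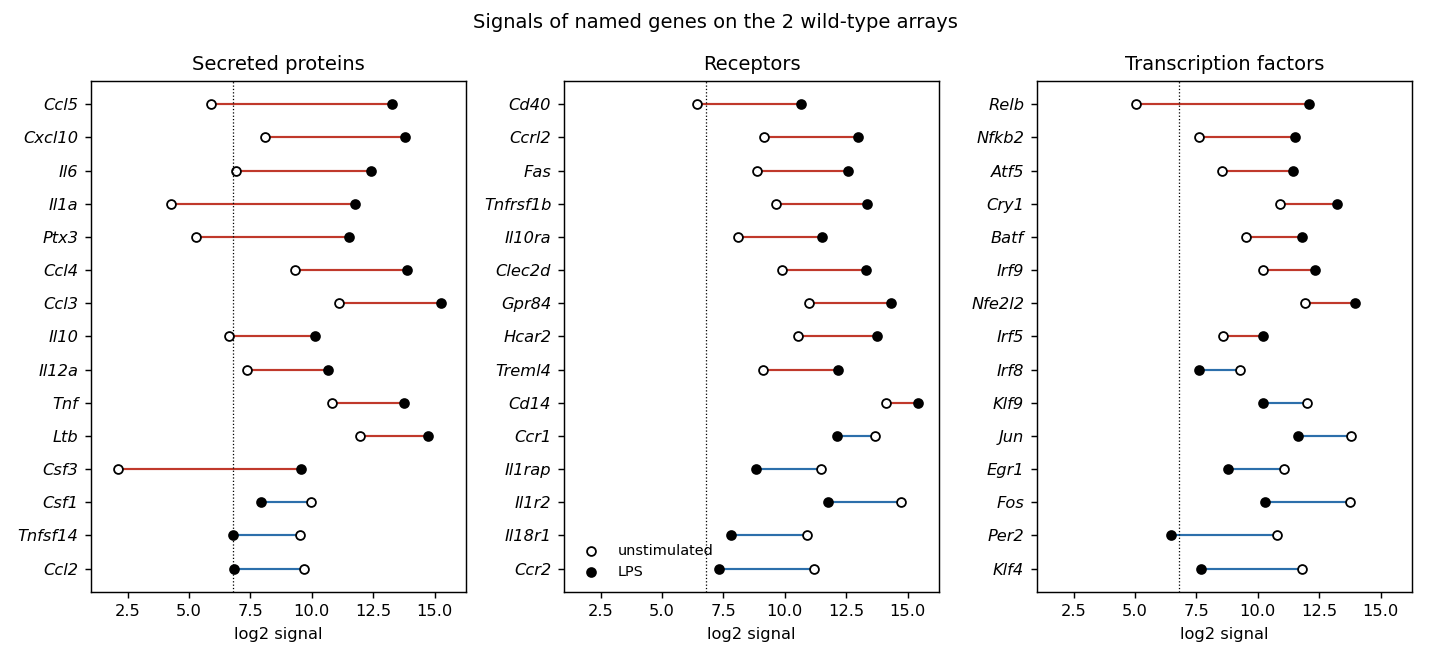
Log2 signals (x axis) of 45 named genes in 3 roles on the unstimulated (open circles) and LPS (filled circles) wild-type arrays, joined by a red line where higher and a blue line where lower after LPS, with the floor of 6.80 dotted. Ccl5, Il1a, Ptx3, Csf3, Il10, Cd40 and Relb start under the floor, and Tnfsf14 and Per2 end under it.

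Receptor genes moved in both directions. Of 24 measured cytokine receptor chains 5 were higher and 5 lower (median -0.20, and 0.02 under the common median). The higher chains serve interleukin-10, interferons and the macrophage growth factor. Il10ra, the ligand-binding chain for interleukin-10, had 8.08 and 11.50 in its brightest probe set but -0.81 in the other, and Il10rb, its partner, differed by 1.68. Ifngr2 went from 10.64 to 12.56 and Ifnar1 from 9.29 to 10.97, and the other probe sets of these 3 chains had 0.74, 0.77 and 0.99. Il10rb, Ifnar1 and Ifngr2 lie next to each other in the reference annotation. Csf1r, the receptor of Csf1, went from 11.80 to 14.45, opposite to its ligand.

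The lower chains were led by receptors of the interleukin-1 family. Il18r1, the ligand-binding chain for interleukin-18, went from 10.90 to 7.80. Il1r2, a decoy receptor that binds interleukin-1 without signalling, went from 14.73 to 11.77. Il1rap, the accessory chain shared by several receptors of this family, went from 11.48 to 8.84. So 3 genes whose products receive or trap interleukin-1 family cytokines were lower on the array on which Il1a, Il1b, Il1f9 and Il18 were higher. Il15ra differed by -2.54, with its other probe set at -0.44, and Il13ra1 by -1.93.

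Of 12 TNF receptor superfamily genes 3 were higher and 1 lower. Cd40, a costimulatory receptor, was at least 14.7-fold higher, the death receptor Fas had 8.87 and 12.59, and Tnfrsf1b, the second receptor for TNF, had 9.66 and 13.33 with 0.64 in its other probe set. Tnfrsf1a, the first receptor for TNF, had 12.12 and 12.66. The lower member was Tnfrsf18 (GITR), with -1.29.

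Chemoattractant and lipid mediator receptors had 8 higher and 4 lower of 21. Ccrl2, which presents chemerin without signalling, had 9.17 and 12.96, Gpr84, a receptor of medium-chain fatty acids, 10.98 and 14.33, and Hcar2, a receptor of hydroxybutyrate and niacin, 10.55 and 13.75. The complement receptors C3ar1 and C5ar1 were higher by at least 4.34-fold and by 1.02 on the log2 scale. Among the lower members were receptors that hold or draw leukocytes: Ccr2, bound by Ccl2, went from 11.19 to 7.31, Ccr1, bound by Ccl3 and Ccl5, from 13.69 to 12.11, and Cxcr4, the marrow retention receptor, from 13.19 to 12.04. Prok2, a secreted chemotactic peptide kept in this list, went from 12.53 to 8.44, and its other probe sets had -2.43 and -0.94. The neutrophil chemokine receptor Cxcr2 had 12.09 and 11.46, and the formyl peptide receptor Fpr2 14.78 and 15.01, neither called.

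In the list of Toll-like receptors and LPS co-receptors 4 of 16 genes were higher and 2 lower (median -0.09), and 1 and 3 on the spike-in scale. Tlr4, the LPS receptor, was not called, with 10.00 and 9.02 in its brightest probe set. Its partners Cd14 and Ly96 were higher. Cd14 had 14.10 and 15.42, Ly96 8.02 and 9.02, and Tlr2, which senses bacterial lipoproteins, 12.22 and 13.53, while Ly86 (MD-1) was lower, at 10.78 and 9.09, as was Lbp, the LPS-binding protein, at 12.54 and 11.17. Treml4, a receptor that binds dying cells, had 9.12 and 12.17. Of 19 C-type lectin and Fc receptors 9 were higher and 2 lower (median 0.95). Clec4d, Clec4e and Clec4n, neighbours in the annotation whose products bind fungal and mycobacterial glycolipids or mannans, were higher by 1.06, 1.30 and 1.92. The scavenger receptor Marco was listed under the floor unstimulated and was at least 6.23-fold higher. The scavenger receptor Msr1 differed by -1.35 in its brightest probe set, but its other probe sets ranged from -0.72 to 0.57. Clec2d, a ligand of a natural killer cell receptor, had 9.87 and 13.30. Among inhibitory and paired receptors 4 of 19 were higher and 3 lower, led by Pilra (12.33 and 14.67) and Siglece (8.03 and 9.98) above and by Pirb (13.74 and 12.21) below.

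Adhesion genes had 11 of 32 members higher and 1 lower (median 0.49). Icam1, the ligand of the leukocyte integrins, went from 7.89 to 13.69, 55.5-fold. Sdc4, a heparan sulfate proteoglycan, was 4.40 higher, and Vcam1, a ligand of the integrin VLA-4, had 9.53 and 12.66. Adgre1, the gene of the F4/80 antigen, went from 8.59 to 13.53. Vcam1, Adgre1, Csf1r and Cx3cr1 are also in the monocyte and macrophage marker list, of which 4 of 11 measured genes were higher and 3, namely Ccr2, F13a1 and Klf4, were lower. The part of other cells in these values was not tested. Among integrins, Itgal, the chain of LFA-1, had 12.31 and 14.30, while Itgb2, its partner, had 14.17 and 14.84, and the lower member was Itga6, with -1.60.

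Signalling genes came next, beginning with NF-kB itself. Of 12 NF-kB subunits and IkB proteins 5 were higher and 0 lower (median 0.96). Relb lay at 5.02, under the floor, and at 12.07 after LPS, at least 38.7-fold higher, and Nfkb2, the precursor of its partner p52, had 7.59 and 11.49. Nfkbie, an inhibitor of the pathway, had 9.30 and 12.70. Rela, the subunit of the canonical pathway, had 11.53 and 12.26, and the inhibitor Nfkbia, among the first targets of NF-kB, 14.70 and 15.22, both uncalled. The other probe sets of Nfkbia ranged from 0.50 to 1.54, so its missing call depends on the probe set. A kB match stood in 7 of 15 windows of this list and in 11 of 32 of the list of TRAF, A20 and ubiquitin regulators.

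That second list had 10 of 29 members higher and 2 lower (median 0.68). Traf1, an adaptor of TNF receptors, was at least 19.9-fold higher. Tnip1 had 10.14 and 14.40 and the ubiquitin-editing enzyme Tnfaip3 (A20), to which it binds, 10.82 and 13.80, so both parts of this inhibitory complex were higher. Birc3, a ubiquitin ligase downstream of TNF receptors, had 12.08 and 13.85. Tnip2, a related A20-binding protein, was lower, a bound of -1.31.

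Upstream of NF-kB, 7 of 30 adaptor and kinase genes were higher and 1 lower. Both kinds of IRAK regulator were among them: Irak3, a pseudokinase that restrains the receptor complex, had 10.72 and 14.47, and Irak2, which sustains its signal, 8.81 and 11.63. Ikbke, an inducible kinase that activates interferon regulatory factors, went from 9.34 to 13.81, and Map3k8 (TPL2), which drives ERK and is needed for TNF production, from 9.17 to 13.10. Mapkapk2, a kinase under p38 that stabilises cytokine mRNA, had 10.68 and 13.34. The adaptor Myd88 had 12.87 and 13.54 and the kinase Tbk1 12.12 and 12.60, neither called.

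Of 29 JAK-STAT genes 11 were higher and 2 lower (median 0.40). They include the feedback inhibitors Cish (8.15 and 11.19), Socs3 (11.39 and 13.58) and Socs1, at least 2.64-fold higher, and the receptor-bound kinases Tyk2 (9.12 and 11.44) and Jak2 (10.92 and 12.19). Pim2, a survival kinase induced by STAT signalling, went from 6.92 to 11.93. Jak3 was lower, from 8.58 to 6.93. MAP kinase phosphatases split, with 2 of 16 higher and 4 lower. Dusp2 had 8.50 and 9.98, whereas Dusp1 went from 13.37 to 11.47 and Dusp6, which acts on ERK, differed by -2.12. Dusp16 had 4.39 in its brightest probe set and -0.88 in the other, so its direction depends on the probe set.

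Switches of G proteins and small GTPases had 12 of 48 genes higher and 7 lower. Cdc42ep2 (8.04 and 12.12) and Cdc42ep4 (8.88 and 11.87), effectors of the actin switch Cdc42, were higher, as was the related GTPase Rhoq (7.90 and 11.59). The GTPase Rras lay under the floor unstimulated and was at least 28.6-fold higher. Among the RGS genes, whose products shut off G protein signalling, Rgs2 (13.51 and 10.88) and Rgs18 (13.04 and 9.91) were lower, Rgs10 (7.97 and 8.98) was higher, and the other measured members were not called. Rhob, an endosomal GTPase, had 12.02 and 10.70, and Dock9 (10.08 and 6.89) and Fgd4 (10.52 and 9.23), exchange factors for Cdc42, were lower. The brightest GTPase genes differed little, with 14.23 and 14.26 for Cdc42 and 13.73 and 14.33 for Rac2.

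In the phosphoinositide and mTOR list 5 of 30 genes were higher and 3 lower. Pik3ap1, an adaptor of PI3 kinase below Toll-like receptors, had 9.20 and 12.32 with 0.77 in its other probe set. Pik3cg and its regulatory subunit Pik3r5, the form used by chemoattractant receptors, were higher together, by 1.94 and 1.76. Sgk1, a kinase induced by glucocorticoids, went from 13.29 to 11.66, and Tsc22d3 (GILZ), a further glucocorticoid target, from 11.99 to 10.72. Per1, Klf9 and Fkbp5, which glucocorticoids are also known to induce, differed by -2.11, -1.79 and -1.39. These 5 were set side by side after their values were seen, and other genes that glucocorticoids induce were not gone through. The 5 therefore give no direction for such genes as a set. Ddit4, in the same list as Sgk1 and Tsc22d3, was called higher.

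Transcription factor genes held several of the lowest differences. Of 20 AP-1, ATF and small MAF genes 3 were higher and 6 lower (median -0.45), against 3 and 4 (median -0.05) after quantile normalization and 6 and 4 (median -0.06) under the common median. Fos, the partner of Jun in AP-1, went from 13.75 to 10.28, Jun from 13.82 to 11.62, and Fosb from 10.30 to under the floor, at least 11.3-fold lower. Atf3, induced by stress, went from 10.89 to 9.05. The higher members were Atf5 (8.54 and 11.44), Batf (9.52 and 11.78) and Maf (7.77 and 10.01). Of 24 EGR, NR4A and IER genes 5 were higher and 2 lower, with Egr1 at 11.09 and 8.80 and Ier3, which limits cell death, at 11.87 and 13.87. Fos, Jun and Dusp1, genes that switch on within minutes of many stimuli, were thus brighter on the array labelled as without LPS.

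Of 11 Kruppel-like factors 0 were higher and 5 lower (median -0.76). Klf4, a factor of monocyte differentiation, went from 11.78 to 7.67, the lowest difference where both signals exceeded the floor, and Klf9, a further member, differed by -1.79. Klf6, Klf2 and Klf3 had -0.76, -0.74 and 0.95, and other probe sets of Klf6 ranged from -1.32 to -0.76. Of 11 genes in the list of interferon regulatory factors 4 were higher and 1 lower (median 0.80). Irf9, the DNA-binding part of the type I interferon factor ISGF3, had 10.21 and 12.33, and Irf7 and Irf1 were higher by 1.10 and 1.07. Irf5 had 1.65 in its brightest probe set and -0.29 in the other. Irf8, a factor of monocyte and dendritic cell fate, went from 9.29 to 7.61. Factors of the granulocyte lineage differed little: 1 of 34 was higher and 3 lower, and Cebpb had 14.24 and 14.74.

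Of 11 clock genes 2 were higher and 4 lower. The lower ones were Per1 and Per2, period genes, and the repressors Nr1d2 and Nfil3, with Per2 from 10.79 to under the floor, Per1 from 9.81 to 7.71, Nfil3 from 12.23 to 10.83 and Nr1d2 as a bound of -1.48, while Cry1, a partner of the period proteins, went from 10.90 to 13.22 and Bhlhe40 from 10.93 to 12.03. Genes of RNA decay were called in both directions, 4 of 33 higher and 5 lower. The nuclease gene Zc3h12a (regnase-1), which degrades cytokine mRNAs, had 8.29 and 11.38 and its relative Zc3h12c 7.36 and 9.72. The ARE-binding factor Zfp36l1 had 10.71 and 13.03 and its relative Zfp36l2 13.06 and 12.03, while Zfp36, the best known member, had 12.60 and 12.91. Tob1, which recruits deadenylases, went from 12.96 to 10.95.

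Of 64 chromatin regulators 3 were higher and 10 lower (median -0.14), a balance that moved with the scale, to 5 and 7 after quantile normalization and to 6 and 6 (median 0.11) under the common median. Atrx, a remodeller of heterochromatin, went from 12.49 to 8.89, with other probe sets between -3.07 and -0.33, Kdm7a, a histone demethylase, from 13.57 to 10.86, and the remodellers Chd1 and Smarca5 differed by -2.24 and -1.38. The higher calls were Arid5b, Kdm4a and Chd4, of which Arid5b and Kdm4a had differences below 0 in the mean over their probe sets.

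Interferon-stimulated genes were held in 3 lists, and in each, on the deposited scale, some members were higher and at most 1 lower. Of 38 antiviral effectors 13 were higher and 0 lower (median 0.66), and 8 and 4 (median 0.11) on the spike-in scale. Oasl1, which restrains Irf7 translation, had 8.27 and 11.56, Ifit1, which binds viral RNA, 8.05 and 11.20, and Rsad2 (viperin) 9.77 and 12.78. Members already bright without LPS stayed there, with 14.57 and 14.70 for Ifitm3 and 15.11 and 14.98 for Ifitm6. Of 27 ISG15, PARP and Schlafen genes 11 were higher and 1 lower (median 0.67), and 3 and 4 (median 0.11) on the spike-in scale. Usp18, which strips ISG15 from proteins and damps the interferon receptor, had 8.03 and 12.37 and Parp14 8.57 and 11.90, and its neighbours Dtx3l and Parp9 were higher by 1.54 and 1.56.

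The GBP and IRG GTPases, which attack membranes around intracellular microbes, had 5 of 8 members higher and 1 lower (median 1.06). Irgm2 had 8.28 and 11.84 and Irgm1 8.54 and 11.31. Gbp7 was lower, at 10.85 and 9.28. Sensors of foreign nucleic acid had 2 of 12 higher, the RNA sensors Ifih1 (1.29) and Ddx58 (1.14), and 3 lower. In the list of MHC class I and costimulation 6 of 27 were higher and 2 lower. Tap1, the peptide transporter, had 9.83 and 11.12, the checkpoint ligand Cd274 (PD-L1) 8.05 and 9.68, and Icosl 7.29 and 9.29, while H2-K1 and B2m, at 14.46 and 15.14 after LPS, were 0.61 and 0.56 higher without reaching a call. Other probe sets of H2-K1 ranged from 0.89 to 1.15. Cd86 had -1.62 in its brightest probe set and 1.59 in the other, so no direction can be given.

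**Figure D4:**
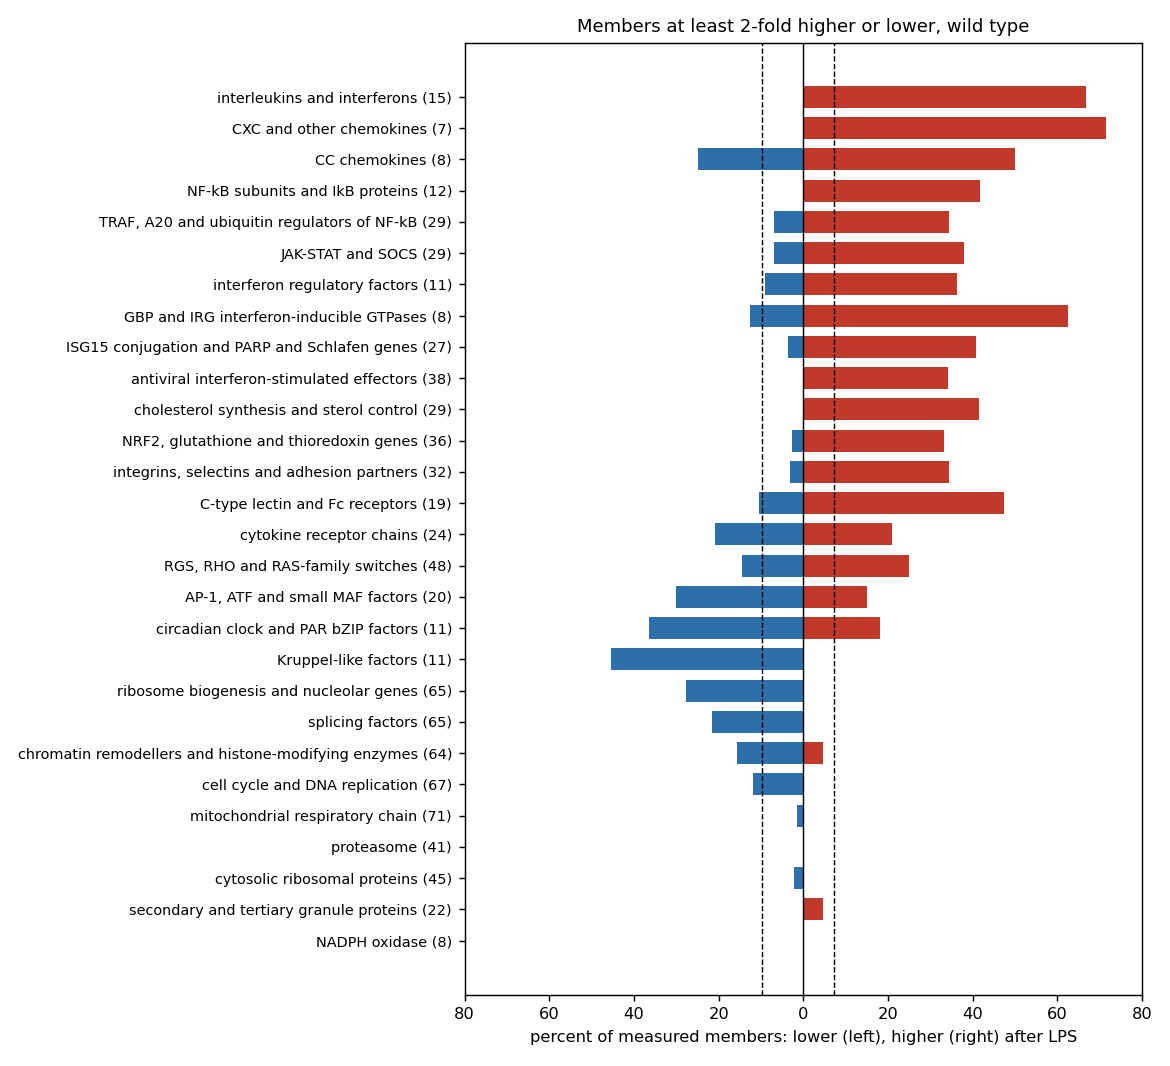
Percent of measured members (x axis) called lower (blue, to the left) or higher (red, to the right) in 28 gene lists, with the number measured in brackets and dashed lines at the background of 9.69% lower and 7.29% higher. Mediator, NF-kB, interferon, sterol and adhesion lists extend to the right, Kruppel-like, ribosome biogenesis and splicing lists only to the left, and respiratory chain, proteasome, ribosomal protein and secondary and tertiary granule lists stay inside the background.

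Among metabolic genes, 12 of 36 in the NRF2, glutathione and thioredoxin list, which protects from oxidants, were higher and 1 lower (median 0.36, and -0.20 on the spike-in scale with 8 higher and 3 lower). Slc7a11, which imports cystine for glutathione synthesis, went from 7.02 to 13.21, the largest difference where both signals exceeded the floor. Slc3a2, the heavy chain it pairs with, had 11.31 and 12.60. Sod2, mitochondrial superoxide dismutase, had 11.68 and 15.20, and Hmox1, haem oxygenase, 9.27 and 11.86. The NRF2 targets Txnrd1, Srxn1 and Nqo1 were higher by 1.48, at least 5.87-fold and 1.74. Nfe2l2, the gene of NRF2 itself, had 2.04 in its brightest probe set and -2.20 in the other. The antioxidant element TGACNNNGC was no more frequent in windows of higher genes (14.6%) than of all measured genes (14.4%). The NADPH oxidase, which makes the oxidants, had 0 of 8 genes called, with Cybb at 14.96 and 15.17. Ncf1, a further uncalled member, had 1.23 and 1.53 in its other probe sets.

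In sterol synthesis 12 of 29 members were higher and 0 lower (median 0.75, and 0.19 on the spike-in scale with 6 higher). The enzymes that lead to lanosterol and take the first step after it held most of these calls: from Hmgcs1 to Cyp51, 8 of 10 were higher (median 1.55), against 1 of 7 enzymes after Cyp51 (median 0.06), a division made after the values were seen. Hmgcs1, which makes the precursor of mevalonate, had 12.18 and 13.74. Fdft1, which makes squalene, had 10.88 and 13.29, Sqle, which oxidises it, 9.44 and 11.66, and Cyp51, the first enzyme after lanosterol, 9.10 and 11.18. Srebf2, the master factor of this pathway, had 10.20 and 11.65, with 0.76 in its other probe set. Abca1, the cholesterol exporter that opposes it, was at least 10.4-fold higher, so genes of synthesis and of export were higher together. In the knockout pair 13 of these genes were higher and 0 lower. One stretch with a sterol regulatory element, searched as TCACNCCAC, is shown because Hmgcs1 was the only higher member with a match before the start.
Hmgcs1 (chr13:119690189-119690247, plus strand): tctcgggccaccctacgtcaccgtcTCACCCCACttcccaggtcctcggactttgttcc
This element stood in 1.09% of windows of measured genes and in 1.74% of windows of higher genes, and it and the element in the next paragraph were added after the differences had been seen.

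Some genes known to respond to amino acid shortage, picked from several lists after their values were seen, were higher. Of 19 aminoacyl-tRNA synthetases, which charge tRNAs, 5 were higher and 1 lower (median 0.62), while of 39 initiation factors 0 were higher and 4 lower (median 0.08). This split of the list was also made later. Aars had 9.99 and 11.89, Mars1 10.07 and 11.56, and Cars, Sars and Gars were higher by 1.47, 1.36 and 1.34, with Farsb at -1.08. Asns, asparagine synthetase, had 12.18 and 13.59. Phgdh, the first enzyme of serine synthesis, went from 10.49 to 12.82, Mthfd2, of mitochondrial one-carbon metabolism, from 10.46 to 13.01, and Trib3, a pseudokinase induced by ATF4, from 6.97 to 9.23. Other such genes did not reach a call: Psat1 and Psph, the next enzymes of serine synthesis, had 0.33 and 0.23, the stress factor Ddit3 had -0.07, and Atf4 itself had 12.78 and 13.03. The composite C/EBP-ATF element, searched as TGATGNAA, stood in 2.28% of windows of measured genes, 4.94% of those of higher genes and 2.81% of those of lower genes. Past 4-fold the shares were nearly the same in both directions, 4.83% for higher and 4.81% for lower genes. It stood in 3.97% of all 32851 windows and in 6 of 52 windows of the synthetase and initiation list. Matches are shown for Slc7a11 and for the 3 higher genes of that list and the unfolded protein list with the largest differences among those with a match wholly before the start, which leaves out Trib3.
Slc7a11 (chr3:50443628-50443704, minus strand): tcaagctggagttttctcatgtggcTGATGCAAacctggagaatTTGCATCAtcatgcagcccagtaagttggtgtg
Aars (chr8:111033705-111033762, plus strand): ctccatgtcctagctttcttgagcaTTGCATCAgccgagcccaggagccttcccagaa
Asns (chr6:7693210-7693257, minus strand): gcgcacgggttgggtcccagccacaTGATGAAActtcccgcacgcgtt
Gars (chr6:55037946-55038000, plus strand): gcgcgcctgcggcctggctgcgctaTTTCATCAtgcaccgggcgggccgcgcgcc

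Nucleotide genes were called in both directions. In the list of NAD, nucleotide and one-carbon enzymes 4 of 36 were higher (11.1%) and 5 lower (13.9%), near the background of 7.29% and 9.69%. The balance moved with the scale, to 6 higher and 3 lower after quantile normalization and under the common median. On the spike-in scale it was 4 and 11. The purine enzymes Atic (10.28 and 8.56) and Ppat (9.07 and 7.51), the folate enzyme Mthfd1 (9.82 and 8.74) and the pyrimidine salvage kinase Uck2 (10.22 and 8.59) were lower. Upp1, which breaks uridine down, had 12.23 and 14.70, and the NAD kinase Nadk 12.73 and 14.70. Adenosine deaminase, Ada, went from 12.81 to 9.45.

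Among itaconate, arginine and polyamine enzymes 6 of 17 were higher and 1 lower. Acod1, which makes the antibacterial metabolite itaconate, had 11.04 and 14.60, Gch1, which makes the cofactor of nitric oxide synthase, 10.14 and 12.62, and Arg2, a mitochondrial arginase, 11.31 and 13.31. Smox, a polyamine oxidase, had 3.10 in its brightest probe set and 0.00 in the other, and Srm, which makes spermidine, went from 10.83 to 9.16. Lipid genes had 11 of 51 higher and 3 lower. Smpdl3b, a phosphodiesterase that restrains Toll-like receptor signalling at the membrane, was at least 41.5-fold higher, Ptges, prostaglandin E synthase, had 7.18 and 10.62, and Lpcat2, which makes platelet-activating factor, 12.18 and 14.25. Cpt1a, the entry enzyme of fatty acid oxidation, went from 11.02 to 9.61.

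Glycolysis and glucose genes had 1 of 39 higher, the transporter Slc2a6 (8.40 and 11.91), and 2 lower, the lactate transporter Slc16a1 (11.47 and 9.19) and the kinase Pdk1. Of 71 respiratory chain genes 0 were higher and 1 lower, Cox7c. Among metal handlers the phagosome exporter Slc11a1 had 10.86 and 12.91, and among other carriers the peptide transporter Slc15a3 had 11.20 and 13.60 and the aromatic amino acid carrier Slc16a10 8.89 and 11.85.

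Survival and death genes were called in both directions. Of 29 BCL2 family and caspase genes 6 were higher and 3 lower. Bcl2l11 (BIM), which promotes death, had 10.32 and 12.52, and its other probe sets ranged from 1.58 to 2.73. Bcl2l1, which prevents death, had 9.18 and 10.42 in its brightest probe set, but differences of only 0.27 and 0.42 in the others. Casp6 went from 9.71 to under the floor, at least 7.52-fold lower, and Mcl1, the BCL2 relative on which neutrophils depend, had 14.73 and 14.39. Cflar, an inhibitor of death receptor signalling, had 1.65 in its brightest probe set and from -1.64 to 1.79 in 4 others. Inflammasome and lytic death genes had 6 of 20 higher and 2 lower. Nlrp3, the sensor primed by LPS, had 8.86 and 10.78, Mefv (pyrin) 9.69 and 12.80, and Ninj1, which ruptures the membrane, 10.86 and 13.54, while the adaptor Pycard had 12.67 and 11.99 and Casp1 11.01 and 10.96.

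Growth-arrest genes were divided in a similar way, with 5 of 32 higher and 5 lower. Gadd45b had 10.66 and 13.20, whereas its relatives Gadd45a and Gadd45g went from 12.94 to 11.82 and from 10.81 to 8.61. The cell cycle inhibitor Cdkn1a had 10.59 and 12.07. Autophagy genes had 4 of 36 higher and 3 lower, led by the receptor Sqstm1 (10.26 and 13.03), whose other probe set had 0.52, and lysosomal genes 6 of 50 higher and 1 lower, among them the lysosome factors Mitf (7.69 and 9.81) and Tfe3 (9.09 and 10.92). Heat shock and unfolded protein genes were near the background, with 2 of 32 and 3 of 39 higher and 4 and 2 lower.

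The machinery of gene expression split by function. Of 65 ribosome biogenesis and nucleolar genes 0 were higher and 18 lower (median -0.63), and 60 of 65 had differences below 0. The median stayed below 0 on every scale, at -0.38 under the common median, where 14 were lower and 0 higher. Nop58, a core protein of snoRNA particles, went from 11.08 to 9.10, the pseudouridine synthase Dkc1 from 11.62 to 9.72, and Nolc1, a nucleolar chaperone, from 10.30 to 8.40. The RNA helicase Ddx21 had 9.96 and 8.25, with -0.55 in its other probe set. Ncl (nucleolin) had 12.89 and 11.12, though other probe sets ranged from -1.97 to 0.70. In the knockout pair 19 of these genes were lower and 0 higher.

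By contrast, of 45 cytosolic ribosomal protein genes 0 were higher and 1 lower, Rpl12, and 40 of 45 had differences above 0 (median 0.36, and -0.20 on the spike-in scale). The proteasome had 0 of 41 genes called (median 0.22, and -0.34 on the spike-in scale). The median of the genes that assemble ribosomes was thus below that of the ribosomal proteins on the deposited scale. The order was the same after quantile normalization, with -0.44 and 0.10, and on the spike-in scale, with -1.17 and -0.20. Spike-in and common-median scaling move all signals of an array by the same amount. They could therefore hardly change this order.

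Splicing genes were lower in 14 of 65 and higher in 0 (median -0.23, and 0.01 under the common median, where 11 were lower and 1 higher). The lowest was Neat1, not a splicing factor but the nuclear RNA that builds paraspeckles, with 13.07 and 10.76, and Malat1, a further nuclear RNA, had 13.71 and 11.98. Pnisr, an SR-related protein, had 11.30 and 9.24, and Rbm39 12.85 and 10.80. The kinases Clk1 and Clk4, which phosphorylate SR proteins, had 13.28 and 11.29 and 11.02 and 9.08. Core factors differed less, with Sf1 at 14.31 and 14.57 and Snrpe at 14.16 and 14.21. Cell cycle genes were lower in 8 of 67 and higher in 0 (median -0.20, and 0.05 under the common median), with the centromere proteins Cenpf and Cenpe at -2.43 and -1.99.

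**Figure D5:**
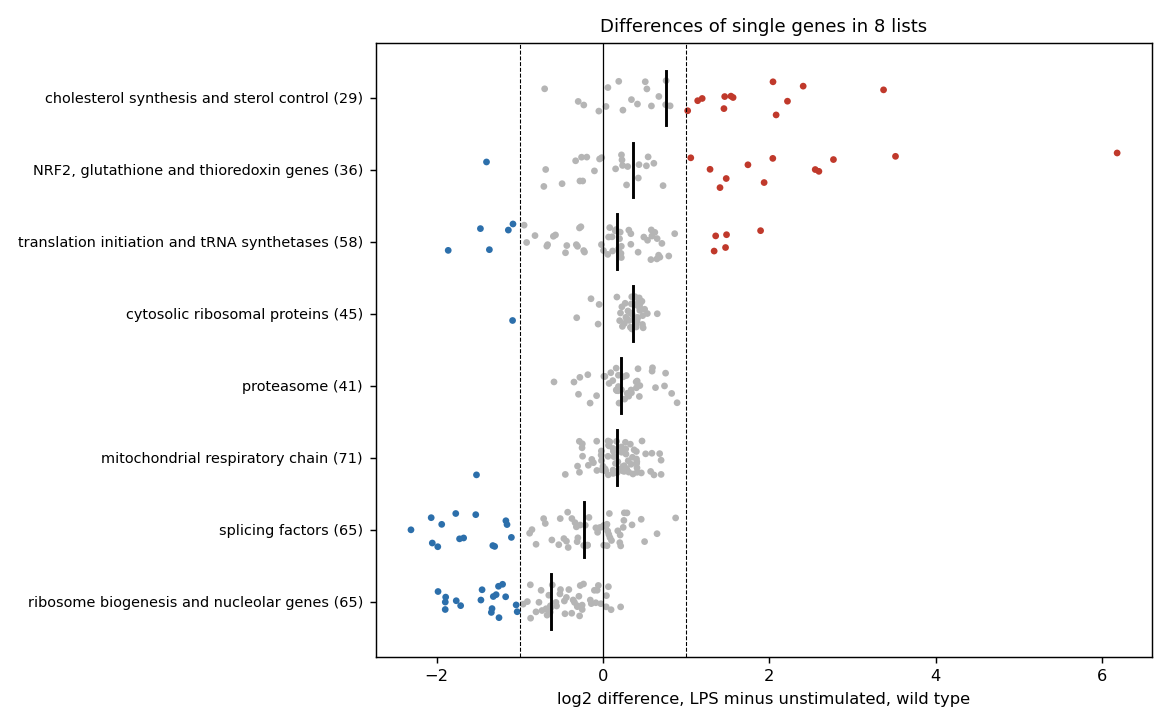
Log2 difference of every measured member (points, x axis) of 8 lists (rows, number measured in brackets) between the wild-type arrays, red where higher, blue where lower, with the list median as a bar and 2-fold limits dashed. Ribosome biogenesis genes have a median of -0.63 and reach -1.98 at Nop58, ribosomal protein genes cluster at 0.36, and sterol genes reach 3.38 at Abca1.

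Stored effector proteins and the cytoskeleton differed little. Of 22 secondary and tertiary granule genes 1 was higher, the cystatin gene Stfa2l1 (11.99 and 13.66), and 0 lower. Of 9 genes in the primary granule list 0 were higher and 1 was lower, Nkg7, which is also in the T and NK cell marker list. Cytoskeletal genes had 4 of 62 higher and 1 lower, namely Marcksl1 (12.52 and 15.28), Marcks (11.21 and 13.92), the myosin Myo1f, Pstpip2 and, below, the formin Diaph2 (11.12 and 8.86).

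Most called genes lay outside the lists: 1161 of all calls (71.9%) were no member of any list. Among them in the higher direction were Tgm2, a transglutaminase (9.89 and 13.96), Hivep3, a zinc finger protein that binds kB-like sites (7.25 and 11.04), and the receptor Gpr18 (7.06 and 10.58). In the lower direction were Suco (13.64 and 10.89), Pnn, a protein of nuclear speckles (12.10 and 9.18), and Srp54b, a subunit of the signal recognition particle (10.13 and 6.82). The aryl hydrocarbon receptor Ahr was at least 6.17-fold lower. Genes named Zfp, mostly zinc finger proteins, had 9 of 187 higher and 35 lower.

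Size, position and base composition also differed between the called groups. The median gene span in the reference annotation was 21.2 kb for higher genes, 32.9 kb for lower genes and 21.9 kb for uncalled genes. Long noncoding RNAs were 1.0% of higher and 3.7% of lower genes, against 2.0% of uncalled genes. Promoter windows of higher genes had a median of 16 CpG dinucleotides, and 14 past 4-fold, against 21 for lower and for uncalled genes, and a TATA box stood in 2.0% of windows of higher genes, 3.86% past 4-fold, 1.51% of lower and 0.94% of uncalled genes. Runs of at least 3 neighbouring measured genes called in the same direction numbered 14 higher and 19 lower. The longest higher run was Lst1, Ltb, Tnf, Lta and Nfkbil1, and others were Il1f9, Il1f6 and Il1rn, and Parp14, Dtx3l and Parp9. These descriptions were chosen after the differences were known.

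The knockout pair of arrays shares no array with the wild-type pair and gives the same treatment in another genotype, so it is not a replicate. In it 634 of 9578 measured genes were higher (6.62%) and 765 lower (7.99%), and 187 (1.95%) and 69 (0.72%) passed 4-fold. Of the wild-type higher genes 514 were also higher there, 74.2% of the wild-type and 81.1% of the knockout calls, and of the lower genes 543 were also lower, 59.0% and 71.0%. None was called in opposite directions. The share depended on size: of wild-type higher genes with a difference from 1 to 1.5, 53.9% were called in the knockout pair too, against 88.0% from 1.5 to 2 and 98.5% from 3 up. For lower genes the shares were 42.3%, 82.1% and 100%. Slc7a11 had 5.09 in the knockout pair, Icam1 5.12, Ccl5 at least 6.56 and Klf4 -4.35, beside 6.18, 5.79, at least 6.46 and -4.11. Fas had 5.40 there against 3.72, and Hspa1b, a heat shock gene called higher in wild type at 1.32, had -0.30.

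Further probe sets of a called gene give another measurement on the same arrays. Of the higher genes 321 had at least 1 further measured probe set, and of 507 such probe sets 282 (55.6%) passed 2-fold the same way, 90.1% had the same sign and 11 passed 2-fold the other way. Of the lower genes 466 had 850, of which 461 (54.2%) passed 2-fold the same way, 94.6% had the same sign and 2 passed it the other way. Of 227 called genes chosen for naming that had further measured probe sets, 110 had at least 1 that fell short of 2-fold in the same direction. Uncalled genes are not in these counts, and further probe sets of some, such as Nfkbia, passed 2-fold.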

How the data were processed

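RNA of bone marrow neutrophils was hybridised to 4 Affymetrix mouse arrays (45101 probe sets), 1 pooled array per genotype and treatment. The deposited values are log2 signals made by the authors with MAS5, per the submitters' processing notes, in which its version is not stated. The trimmed mean of the unlogged values, with 2% removed at each end, was 500.003 or 500.004 on each array, so they had been scaled to 1 target, and between 298 and 428 probe sets per array were listed at 0. MAS5 treats arrays singly and scatters at low signal. Arrays have no read depth, and their number limits the precision.

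The platform annotation gave 1 symbol to 34958 probe sets, several to 932 and none to 9211, and the last 2 kinds were left out. Genes without a probe set of 1 symbol were not analysed here. Of several probe sets for a gene, the one with the highest average over the 4 arrays stood for it. A floor was placed at the 60th percentile of all values (log2 6.80, signal 111), and a gene counted as measured if at least 1 wild-type array had it above the floor. Because each group has 1 array, no p-value was computed. The comparison was LPS minus unstimulated in wild type, with the knockout pair beside it.

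The members and the 61 gene lists (2147 symbols, of which 1933 matched and 1724 were measured) and 12 marker lists were chosen with earlier results of these data known, so list counts are descriptions. Named genes were, per direction, the 30 largest differences above the floor on both arrays, the 10 largest bounds, and in each list up to 5 called members per direction and up to 3 bright uncalled ones, or more where a list is gone through member by member. Uncharacterised symbols were passed over, 2 among the higher and 1 among the lower genes. Genes set apart as a subset of a list, neighbour runs, gene names, gene span, TATA boxes and 2 added motifs were chosen after values were seen. Promoter sequences come from RefSeq (GRCm38.p6); the build behind the array annotation was not used for coordinates. TATA boxes were searched from 35 to 16 bases before the start. Counting and motif code was tested on simulated data. Python 3.11.15, pandas 2.3.3, numpy 2.4.6 and matplotlib 3.10.9 were used. Alternatives covered the scaling, the floor, the probe set rule and shared probe sets.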

Additional observations from a re-analysis of the deposited data

How the results depend on the processing

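No paired analysis was possible because each group holds 1 array. The counts of 693 higher and 921 lower genes stayed within 1.5 times under quantile normalization, the common median, a floor at the 50th percentile, averaging of probe sets and removal of shared ones. On the poly-A spike-in scale 340 genes were higher and 2389 lower. With a floor at the 75th percentile 528 were lower, since fewer genes were tested, and with no floor 2720 were higher and 3292 lower over all 18193 genes, most of the added ones dim. Of 61 list medians 38 were above 0, against 13 on the spike-in scale and 55 under the common median. The median of the TNF superfamily ligands was -0.053 with no floor, when genes under the floor on both arrays enter it, and in the mean over probe sets Arid5b had -6.3e-05 and Kdm4a -0.15. Of 372 named and called genes that could be recomputed, 232 kept their call under every alternative in which they were still measured. Named genes without a call were not part of this count. The call was kept by 305 of the 372 under the floor at the 75th percentile. It was kept by 310 when probe sets were averaged and by 323 on the spike-in scale. Genes still measured that lost their call but kept their direction numbered 46, 43 and 49 in the same order. When probe sets were averaged, 2 more, Arid5b and Kdm4a, lost their call with a change of direction. Under the higher floor and with averaged probe sets other genes were no longer measured. Cells labelled 0 h may differ from treated cells by time in culture, and 1 array per group leaves the error of every difference unknown.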
